A study of Rattus norvegicus with 15 samples.

Results

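The genes Mbp, Pmp22, Prx, Mag, S100b, Sox10, Ngfr and Egr2 mark Schwann cells, their myelin and their response to nerve injury. They were taken by symbol from a table of 37991 genes measured in rat multifidus, the deep paraspinal muscle, and each of the 8 symbols matched 1 row. The rule of selection used symbols only. All 8 genes passed the filter on low counts and were among the 17201 genes tested, and the question was how they differed across the 5 groups of the study.

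Schwann cells are the glia of peripheral nerve and accompany the motor and sensory axons that run through muscle to the neuromuscular junction and the muscle spindle. Myelinating Schwann cells wrap 1 segment of 1 axon each, under transcription factors such as Sox10 and Egr2, and build a sheath from proteins that include Pmp22, Mbp, Mag and Prx. After an axon is lost they are known to lower myelin genes and to take up a repair state in which Ngfr, the low-affinity neurotrophin receptor, is raised.

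All animals were wild-type male Sprague Dawley rats of 12 weeks. The control group was uninjured and gave 2 libraries, and the surgery group, operated and left untreated, gave 2. The operation removed the left lamina at the L5 and L6 levels and tied the left L5 spinal nerve, so every operated group combined muscle injury with a cut in nerve supply, and there was no sham operation among the labels. The pMT group (4 libraries) was operated and then received pMT, mitochondria isolated from human plasma, at 25 µg in 100 µL per site and 50 µg per rat, on day 14. The pMT/VitD group (4 libraries) was operated and received the same dose of pMT with cholecalciferol (vitamin D, VitD) at 150 µg per site and 300 µg per rat. The VitD group (3 libraries) was operated and received that dose of cholecalciferol alone. Muscle of the control, surgery and pMT groups was taken on day 28, and the days for both VitD groups are not given in the sources used here. The labels do not tie libraries to animals, so p-values measure the spread between these libraries, which may in part be technical.

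Total counts were 52342100 to 73557900 per library (median 64352200), and between 10.7% and 22.6% of them fell on the 13 protein genes of mitochondrial DNA. The tissue label was matched by its markers, since 6 muscle fibre genes, among them Acta1, Ckm and Myh4, together held 92210 to 168961 CPM (counts scaled to the effective library size). A pair of libraries stood apart from the groups on their labels. Across 3129 abundant genes the log2 ratios of the library labelled pMT replicate 4 had SDs of 0.365 to 0.550 against the rest of its group, and of only 0.178 to 0.314 against pMT/VitD replicates 1, 2 and 3. For the library labelled pMT/VitD replicate 4 the SDs were 0.371 to 0.479 against its own group and 0.194 to 0.253 against pMT replicates 1, 2 and 3. Both kept their labels below. Fits without them are given for some comparisons of Pmp22, Ngfr and Mag and for the numbers of members called, and not for the other results. The libraries also differed in how their counts followed gene length, with Spearman's rho across 12801 genes from -0.539 in pMT/VitD replicate 1 to 0.606 in pMT replicate 3.

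Of the 8 genes, 6 had a promoter window in the RefSeq sequences of the GRCr8 assembly, and Sox10 and Ngfr had none. Windows ran from 250 bases before to 50 bases after the annotated start. Each was searched on both strands for the core letters of 4 factor families of Schwann cell biology, namely ACAAAG for SOX10, GTGGGCG for EGR2, GGAATG for TEAD and TGACTCA for AP-1. A SOX10 core was found in 1 window (Mag), a TEAD core in 2 (Pmp22 and Prx), and neither of the other cores in any. Among 27457 promoters of the same length these letters occurred in 18.3% (SOX10), 7.67% (EGR2), 13.9% (TEAD) and 4.53% (AP-1). The 3 windows with a match are shown, Pmp22 because its counts carry most of the differences below, with the matched letters in capitals, on the strand opposite to the gene at -174 (Pmp22, chr10:48294682-48294981, plus strand), -49 (Prx, chr1:91914171-91914470, plus strand) and -152 (Mag, chr1:95290995-95291294, minus strand). A match is a description of letters and no evidence of binding.
Pmp22: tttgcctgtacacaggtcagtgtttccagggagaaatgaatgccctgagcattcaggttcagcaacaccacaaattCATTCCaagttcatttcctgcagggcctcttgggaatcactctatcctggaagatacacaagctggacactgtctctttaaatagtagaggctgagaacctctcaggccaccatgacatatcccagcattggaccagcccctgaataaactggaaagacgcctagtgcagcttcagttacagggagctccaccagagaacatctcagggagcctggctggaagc
Prx: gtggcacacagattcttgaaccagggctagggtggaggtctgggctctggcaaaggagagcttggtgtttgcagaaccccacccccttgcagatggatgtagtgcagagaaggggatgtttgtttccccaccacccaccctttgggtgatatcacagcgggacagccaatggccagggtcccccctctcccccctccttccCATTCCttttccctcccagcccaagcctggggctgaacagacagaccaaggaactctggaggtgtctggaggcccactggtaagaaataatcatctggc
Mag: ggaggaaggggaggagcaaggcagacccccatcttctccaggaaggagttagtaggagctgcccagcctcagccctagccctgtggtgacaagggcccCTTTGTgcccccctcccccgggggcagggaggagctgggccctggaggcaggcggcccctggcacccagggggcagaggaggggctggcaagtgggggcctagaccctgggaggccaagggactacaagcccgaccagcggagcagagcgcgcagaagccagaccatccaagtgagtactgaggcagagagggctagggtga

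Pmp22, the peripheral myelin protein of compact myelin, was the highest of the 8 in every library. Its median level was 49.1 TPM, a scale that divides by gene length, with a range of 28.6 to 70.8, and it made up 66.2% to 76.5% of the summed TPM of the 8 genes. Mbp, which joins the cytoplasmic faces of the sheath, and S100b, a calcium-binding protein of glia, followed at medians of 7.90 and 7.16 TPM. Mbp exceeded S100b in only 9 of 15 libraries, so their order was not settled. Prx (periaxin, a scaffold of the outer Schwann cell membrane) had a median of 2.86 TPM and lay below S100b in all 15 libraries. Egr2, Sox10 and Ngfr had medians of 0.399, 0.357 and 0.315 TPM, with Egr2 above Sox10 in 9 libraries and Sox10 above Ngfr in 4, so these 3 genes overlapped. Mag, the adhesion protein that faces the axon, was lowest at 0.110 TPM and rested on 8 to 37 counts per library. Pmp22 is also made outside nerve, by fibroblasts among others, and no gene of the 8 is exclusive to Schwann cells.

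**Figure D1:**
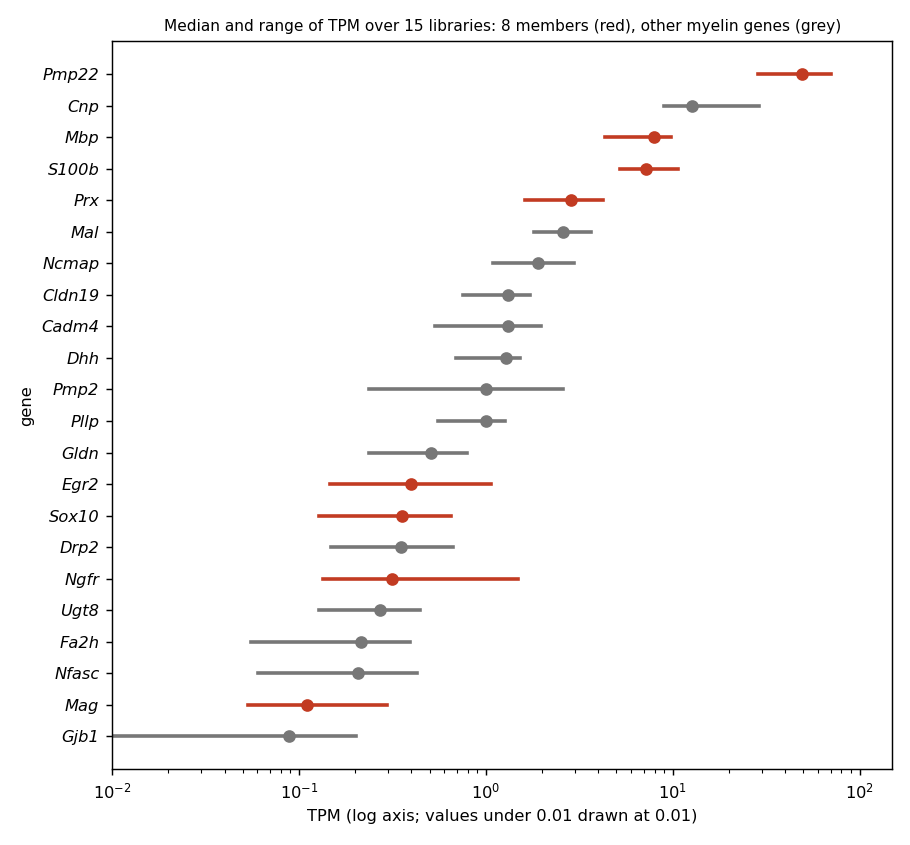
Median (point) and range (line) of TPM over the 15 libraries, on a log axis, for the 8 members (red) and 14 other myelin genes (grey). Pmp22 leads at a median of 49.1 TPM, and Mag lies near the bottom at 0.110 TPM.

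The receptor, the regulators and Mag varied more between libraries than the abundant sheath proteins. The SD of log2 CPM over all libraries was 0.751 for Ngfr, 0.684 for Egr2, 0.497 for Sox10 and 0.464 for Mag, against a median of 0.305 over all genes tested. It was 0.252 for S100b, 0.230 for Pmp22, 0.207 for Prx and 0.164 for Mbp. Ngfr lay at the 87.6th and Mbp at the 15.3rd percentile of all genes tested by this SD. The 4 variable genes were also those with the fewest counts, 8 to 262 per library.

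Pmp22 was higher in the surgery and VitD groups than in the other 3. The control libraries held 61.6 and 59.8 CPM, and the surgery libraries held 72.1 and 77.3 CPM. The pMT libraries held 63.5, 62.5, 60.8 and 51.8 CPM, and the pMT/VitD libraries 53.1, 48.2, 53.8 and 62.2 CPM. The VitD libraries held 81.2, 78.6 and 70.8 CPM. All 5 libraries of the surgery and VitD groups were at or above 70.8 CPM, and all 10 of the control, pMT and pMT/VitD groups at or below 63.5 CPM. This split was not a planned comparison, and the share of all genes that separate in this way was not computed. Pmp22 fell in pMT/VitD against surgery by 0.46 on the log2 scale (SE 0.117, adjusted p = 0.0308, edgeR's quasi-likelihood test), a level 1.37-fold lower. This call was lost without either surgery replicate (adjusted p = 0.165 without replicate 1 and 0.282 without replicate 2) and without pMT/VitD replicate 1 (0.0705), 2 (0.0775) or 3 (0.0558), and with only the libraries of both groups in the fit (0.0746). Against VitD, Pmp22 in pMT/VitD fell by 0.50 (SE 0.104, adjusted p = 0.0046, edgeR), 1.41-fold, a call that held without each library in turn. Without both replicates labelled 4 the changes were -0.54 (adjusted p = 0.00264, edgeR) and -0.58 (4.31e-04). The bulk counts cannot tell fewer cells of a type from less RNA per cell.

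In the comparisons that did not pass the test, Pmp22 had a log2 fold change of 0.30 in surgery against control (95% interval 0.01 to 0.59, adjusted p = 0.284, edgeR) and of 0.34 in VitD against control (0.07 to 0.61, adjusted p = 0.105). In pMT against surgery it was -0.32 (-0.57 to -0.07, adjusted p = 0.201). VitD against surgery gave 0.04, with an interval from -0.23 to 0.31, and pMT against control gave -0.03, from -0.28 to 0.23. Without both replicates labelled 4, Pmp22 passed in VitD against control at 0.37 (adjusted p = 0.0234, edgeR) and in pMT/VitD against pMT at -0.26 (0.0478), where the fit with all libraries gave -0.14 (adjusted p = 0.631).

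For Mbp and Prx the highest library was 1.57-fold and 1.70-fold above the lowest in CPM, beside 1.69-fold for Pmp22. Mbp ran from 8.25 CPM in pMT/VitD replicate 2 to 13 CPM in pMT replicate 2, and Prx from 7.03 to 11.9 CPM in libraries of the same groups. Group means of Mbp were 10.5 ± 0.145 (SD, n = 2) in control, 11.6 ± 0.533 (n = 2) in surgery, 11.5 ± 1.5 (n = 4) in pMT, 10.4 ± 1.49 (n = 4) in pMT/VitD and 12.0 ± 0.366 CPM (n = 3) in VitD. No comparison of Mbp or Prx passed the test with edgeR and TMM scaling. With scaling by library size alone, Mbp passed in pMT/VitD against VitD (-0.55, adjusted p = 0.0273, beside a median of -0.34 over all genes), where TMM scaling gave -0.21 (adjusted p = 0.255). In surgery against control the log2 fold change of Mbp was 0.14 (95% interval -0.21 to 0.49) and that of Prx 0.00 (-0.43 to 0.44).

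Mag was measured at the edge of detection. It had 0.379 and 0.200 CPM in control, 0.194 and 0.218 in surgery, and 0.303, 0.435, 0.510 and 0.351 in pMT. The pMT/VitD libraries had 0.389, 0.352, 0.258 and 0.156 CPM, and the VitD libraries 0.211, 0.204 and 0.208. Every pMT library was above every surgery and VitD library, while the control and pMT/VitD libraries spanned both levels. The log2 fold change in pMT against surgery was 0.96 (SE 0.441, 95% interval 0.01 to 1.9), and its adjusted p of 0.343 (edgeR) missed the threshold.

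Sox10, which holds Schwann cell identity through the whole lineage, was lowest in control. The control libraries had 0.316 and 0.633 CPM, the surgery libraries 1.18 and 0.927, and the pMT libraries 0.691, 0.972, 0.689 and 0.462. The pMT/VitD libraries had 0.864, 1.04, 0.667 and 0.778 CPM, and the VitD libraries 1.26, 0.771 and 0.573. Surgery and pMT/VitD libraries lay above both control libraries, while pMT and VitD overlapped with them. Surgery against control gave a log2 fold change of 1.15 (SE 0.434, 95% interval 0.22 to 2.08, adjusted p = 0.189, edgeR) on 20 to 91 counts. The mean of the 4 operated groups against control gave 0.86 (SE 0.355, adjusted p = 0.371).

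Egr2, the zinc-finger factor that turns on myelin genes, was high in both control libraries at 1.92 and 2.17 CPM. It was 0.646 and 1.21 in surgery, and 1.32, 0.582 and 0.690 in VitD. Both treated groups with pMT were split. The pMT libraries had 0.927, 2.02, 1.96 and 0.961 CPM, and the pMT/VitD libraries 0.583, 1, 0.903 and 2.10, so 3 libraries of these groups reached the control level and the other 5 did not. The pMT/VitD library at that level was the one labelled replicate 4, and pMT replicate 4 was among those below it. Log2 fold changes against control were -1.14 for surgery (SE 0.562, adjusted p = 0.324, edgeR), -1.23 for VitD (SE 0.501, adjusted p = 0.139) and -0.47 for pMT (SE 0.470, adjusted p = 1). Egr2 is also an immediate early gene of many cell types, and Egr1, its relative, had a log2 fold change of -0.79 (SE 0.761, adjusted p = 0.640) in surgery against control.

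Ngfr had the widest range of the 8 genes, from 0.331 to 3.07 CPM. Control libraries had 0.726 and 0.833 CPM and surgery libraries 1.69 and 1.40. The pMT libraries had 1.13, 0.678, 0.979 and 0.647 CPM, and the pMT/VitD libraries 0.583, 0.964, 0.860 and 0.331. The VitD libraries were spread over 3.07, 1.82 and 0.794 CPM. Both surgery libraries were above all control, pMT and pMT/VitD libraries, but VitD replicate 3 lay among the pMT/VitD libraries. Ngfr fell in pMT/VitD against VitD by 1.47 on the log2 scale (SE 0.405, adjusted p = 0.0195, edgeR), 2.76-fold. Without VitD replicate 1 the change was -0.93 and the call was lost (adjusted p = 0.150). It was also lost when only the libraries of these 2 groups were fitted (adjusted p = 0.0746, edgeR). Without both replicates labelled 4 the change was -1.25 and passed (adjusted p = 0.0297). In pMT/VitD against surgery the log2 fold change was -1.18 (95% interval -2.13 to -0.22, adjusted p = 0.123), in surgery against control 0.99 (-0.15 to 2.13, adjusted p = 0.366) and in VitD against control 1.28 (0.22 to 2.34, adjusted p = 0.122). Without VitD replicate 3 the last of these was 1.65 and passed (adjusted p = 0.0223).

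S100b had group means between 7.27 ± 0.648 CPM (SD, n = 2) in control and 8.61 ± 1.49 CPM (n = 4) in pMT/VitD. A set of 4 libraries stood at or above 9.75 CPM, namely pMT replicate 4 (10.8), VitD replicate 1 (10.1) and pMT/VitD replicates 1 and 2 (9.75 and 10.03). The other 11 had 6.22 to 7.94 CPM. On the TPM scale pMT replicate 4 was no longer high, at 7.37 beside 7.02 to 7.51 TPM in the other pMT libraries. Neither were pMT/VitD replicates 1 and 2, at 6.74 and 7.25 TPM, while VitD replicate 1 was highest at 10.7 TPM. Group means were 6.09 TPM in control, 7.62 in surgery, 7.31 in pMT, 6.60 in pMT/VitD and 8.11 in VitD. The order of pMT/VitD and surgery thus depended on the scale. No comparison of S100b passed the test with edgeR, and log2 fold changes against control ran from 0.01 (surgery, SE 0.259) to 0.24 (pMT/VitD, SE 0.227). The 4 libraries with S100b at or above 9.75 CPM also had the highest summed CPM of 6 adipocyte genes. Those sums were 406, 439.5, 385 and 330 in the order given above, beside at most 282 in any other library. A part of adipocytes in the S100b levels was not tested.

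**Figure D2:**
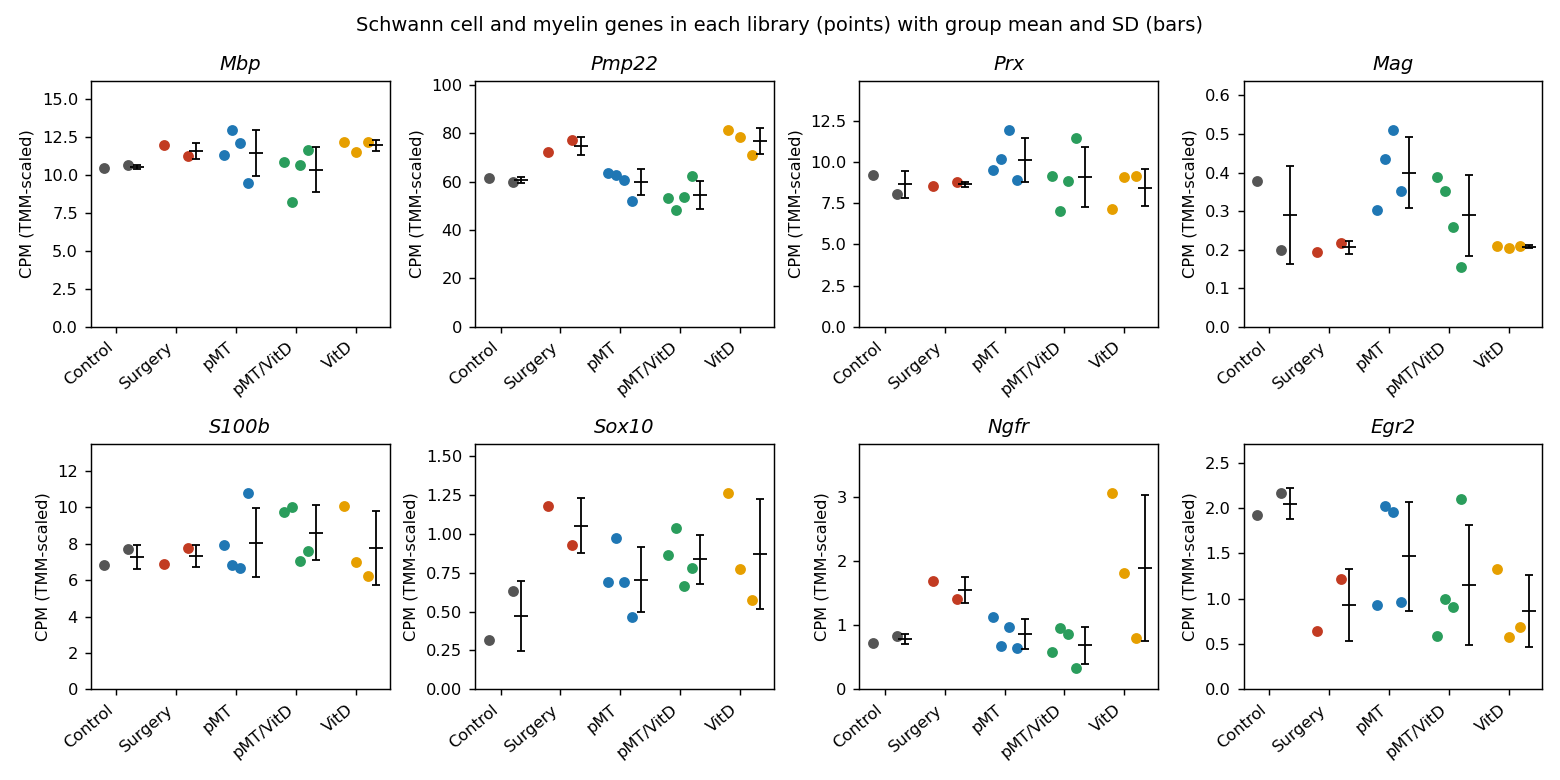
CPM (TMM-scaled, axes from 0) of each member in every library (points, coloured by group), with group mean and SD as bars (n = 2, 2, 4, 4 and 3). Pmp22 libraries of the surgery and VitD groups are at 70.8 CPM or more and those of the other groups at 63.5 CPM or less, while VitD libraries of Ngfr run from 0.794 to 3.07 CPM.

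The first comparison, surgery against control, asks what the operation did in the muscle. None of the 8 genes passed, where 1.55% of all genes tested did, and 2 (Pmp22 and Sox10) had an unadjusted p under 0.05. The libraries did not overlap for 5 members, with Mbp, Pmp22, Sox10 and Ngfr higher and Egr2 lower, but 66.1% of all genes did not overlap in this comparison of 2 with 2. Median log2 fold changes were 0.08 for the members and -0.01 for all genes. When only the 4 libraries compared were fitted, Pmp22, Sox10, Ngfr and Egr2 all passed (adjusted p = 0.00296, 0.0267, 0.00854 and 0.0127, edgeR), with the spread then estimated from 2 pairs. That fit called 5289 of the 16316 genes it tested, far more than the fit with all libraries.

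Treatment with pMT alone was compared with surgery. No member passed against 1.94% of all genes, and Pmp22 and Mag had an unadjusted p under 0.05. All pMT libraries lay above both surgery libraries for Prx and Mag and below them for Pmp22 and Ngfr, where 30.4% of all genes did not overlap. VitD alone against surgery gave 0 of 8 calls and 0% of all genes with edgeR, with 0 members and 139 genes at an unadjusted p under 0.05. DESeq2 called 1 gene and limma voom 405 in that comparison, none of them a member. Libraries of VitD and surgery overlapped for all 8 members (15.8% of all genes did not overlap), and the 95% intervals reached from -0.28 to 0.36 for Mbp and from -0.71 to 1.29 for Ngfr.

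The calls between 2 groups all involved pMT/VitD. Against surgery 1 of 8 members (Pmp22, lower) passed, where 7.44% of all genes did, and Pmp22 and Ngfr libraries lay wholly below surgery, where 36.8% of all genes did not overlap. Against VitD 2 of 8 (Pmp22 and Ngfr, both lower) passed beside 21.9% of all genes, and only Pmp22 did not overlap (28.6% of all genes). The count of 2 in 8 was thus close to the share of all genes. Against pMT no member and 0% of all genes passed with edgeR, 1737 genes had an unadjusted p under 0.05, and DESeq2 called 93 genes and no member. limma voom called 6617 genes and 5 of 8 members there, namely Mbp, Pmp22, Prx and Egr2 lower and S100b higher. The libraries of pMT/VitD and pMT overlapped for every member, while 4.86% of all genes did not overlap.

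Whether pMT acted differently with VitD than without was tested as an interaction. With edgeR and DESeq2 no member and no other gene passed (0%), while 888 genes had an unadjusted p under 0.05 with edgeR. limma voom called 5417 genes, among them Pmp22 (-0.32, adjusted p = 0.0114), Mbp and S100b. The difference between the pMT effects was, with edgeR, -0.18 for Pmp22 (95% interval -0.52 to 0.16) and -0.62 for Ngfr (-1.92 to 0.69). By edgeR and DESeq2 the change of Pmp22 or Ngfr with pMT is therefore not shown to depend on VitD, and for Pmp22 the tools disagreed. A contrast of both pMT-treated groups with both other operated groups was added after the data were seen. Pmp22 was lower by 0.41 (SE 0.0780, adjusted p = 0.00212, edgeR) and Ngfr by 1.16 (SE 0.298, adjusted p = 0.0130), 2 of 8 members beside 23.3% of all genes. Ngfr missed the threshold there without surgery replicate 1 (adjusted p = 0.0615, edgeR). Pmp22 was the 1 member whose libraries did not overlap (11.4% of all genes). Without both replicates labelled 4, Mag passed as well, higher by 0.83 (adjusted p = 0.0482), as it did without pMT/VitD replicate 4 alone (0.81, adjusted p = 0.0449).

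Against the uninjured control, pMT and pMT/VitD gave 0 of 8 calls and 0% of all genes with edgeR and with DESeq2, with 528 and 496 genes at an unadjusted p under 0.05, and limma voom called 231 and 1865. In pMT no member was apart from control (15.2% of all genes were), and in pMT/VitD only Sox10 was, higher (9.2%). VitD gave 0 of 8 beside 8.67% of all genes. Mbp and Pmp22 were apart and higher in VitD, and Egr2 apart and lower, where 52.1% of all genes did not overlap. Pmp22, Sox10, Ngfr and Egr2 had an unadjusted p under 0.05 there. The mean of the 4 operated groups against control gave 0 of 8 calls (0.0233% of all genes) and no member apart (1.4%). In the test of any difference among the 5 groups, Pmp22 passed (adjusted p = 0.0206, edgeR) and the other 7 did not (Ngfr 0.0784, the rest 0.348 to 0.884), beside 11.8% of all genes. That call of Pmp22 was lost without surgery replicate 1 (adjusted p = 0.0511, edgeR), surgery replicate 2 (0.0647) or VitD replicate 2 (0.0689). The pairs of comparisons here share their control or surgery libraries and are not independent of each other.

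**Figure D3:**
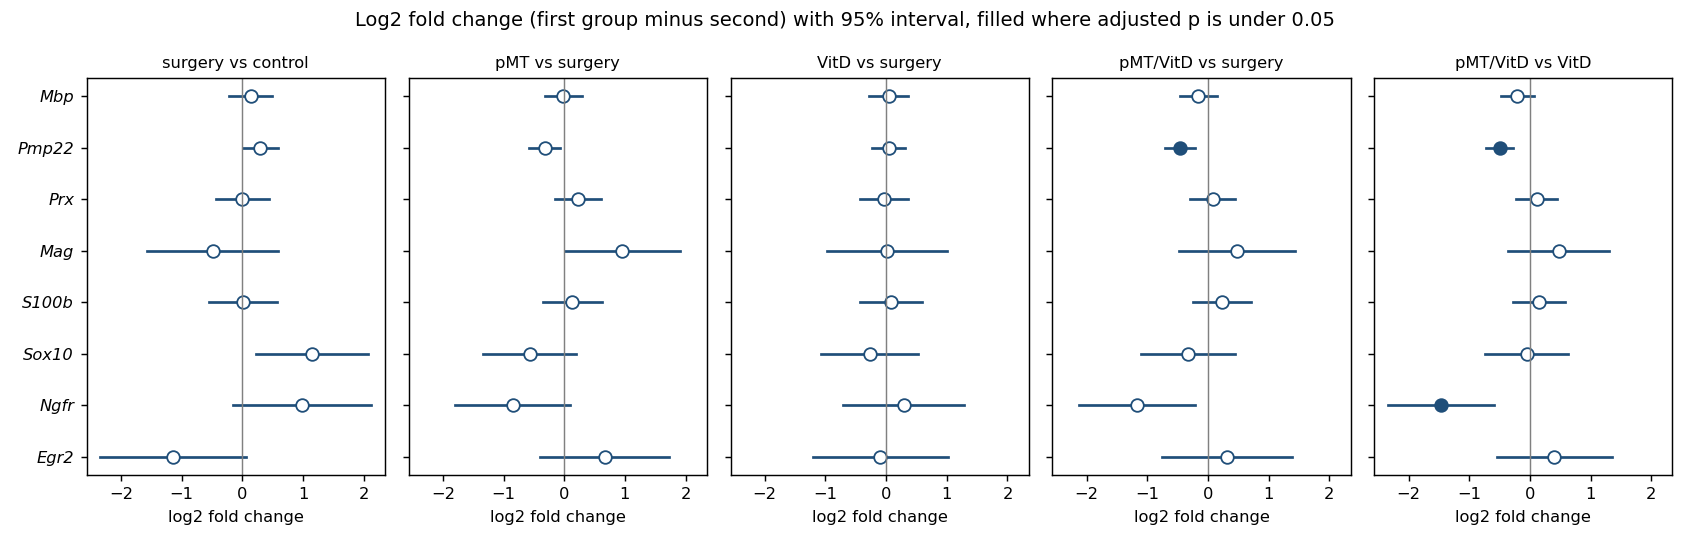
Log2 fold change (first group minus second) with its 95% interval for each member in 5 comparisons, with filled points where the adjusted p is under 0.05. Pmp22 is filled at -0.46 and -0.50 in pMT/VitD against surgery and VitD, and Ngfr at -1.47 against VitD.

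The other myelin genes showed a similar mixture. Of 14 such genes, all were tested, and Cnp and Nfasc passed in the test of any difference among the 5 groups. Cnp, an enzyme of non-compact myelin, rose in surgery from a mean of 18.4 ± 1.08 to 34.6 ± 0.781 CPM (SD, n = 2 each, log2 fold change 0.91, adjusted p = 0.00817, edgeR) and stood at 36.2 ± 5.70 CPM (n = 3) in VitD. It was 22 ± 1.79 CPM (n = 4) in pMT and 19.8 ± 1.19 CPM (n = 4) in pMT/VitD, lower than surgery by 0.66 (adjusted p = 0.0131) and by 0.81 (adjusted p = 0.0021). Cnp thus moved in the direction of Pmp22. Nfasc, the adhesion molecule of the node and paranode, moved the other way, with means of 2.07, 0.999, 2.19, 2.28 and 0.667 CPM in control, surgery, pMT, pMT/VitD and VitD, and rose in pMT/VitD against surgery by 1.19 (adjusted p = 0.0433) and against VitD by 1.78 (adjusted p = 0.0014). In pMT/VitD against surgery 3 of the 14 passed (Nfasc higher, Cnp and Cadm4 lower), beside 7.44% of all genes, with a median of -0.08, against -0.0016 over all genes. Against VitD these 3 genes passed in the same directions, a share of the 14 close to the 21.9% of all genes called there. In surgery against control and in pMT against surgery Cnp alone passed, beside 1.55% and 1.94% of all genes. In VitD against control 3 of the 14 passed (1 higher and 2 lower), beside 8.67%. The added contrast called 4 (2 higher and 2 lower), beside 23.3%. Drp2, chosen after its values were seen, had means of 3.16, 1.76, 2.99, 2.41 and 1.52 CPM in the order of groups given for Nfasc. Mal, a proteolipid of the sheath, and Cldn19, a claudin of Schwann cells, had means of 4.43 and 2.45 CPM over all libraries and passed in none.

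Among genes of Schwann cell identity and repair, Matn2 and Ncam1 were highest in the surgery and VitD groups, as Pmp22 was. Matn2, a matrix protein of nerve, held means of 11.0, 19.3, 10.9, 8.97 and 23.2 CPM in the same order of groups. It fell in pMT/VitD against surgery by 1.1 (adjusted p = 0.0137, edgeR), the 1 gene of 8 tested identity genes to pass there, beside 7.44% of all genes. Against VitD 3 of 8 passed, beside 21.9% of all genes. All were lower, namely Matn2 and, chosen after their values were seen, Adgrg6 and Cdh19. Erbb3, the neuregulin receptor, had means of 2.98, 4.65, 3.06, 2.56 and 5.55 CPM and missed the threshold against VitD (log2 fold change -1.12, adjusted p = 0.0516). Ncam1, an adhesion molecule of repair cells that denervated muscle fibres also make, held 12.4, 26.3, 14.4, 11.8 and 31.5 CPM. It rose in surgery against control by 1.09 (adjusted p = 0.0454), and fell in pMT by 0.87 (adjusted p = 0.0457) and in pMT/VitD by 1.16 (adjusted p = 0.00547) against surgery. It was the 1 of 10 tested repair genes to pass in each of these 3 comparisons, beside 1.55%, 1.94% and 7.44% of all genes. The list's medians there were 0.55, -0.62 and -0.85, beside -0.01, 0.02 and -0.0016 over all genes. In pMT/VitD against VitD 2 of the 10 repair genes passed, both lower, beside 21.9% of all genes. Jun, which drives the repair state, held 126, 153, 138, 117 and 146 CPM and passed in none, and Gap43 did not either (0.47 in surgery against control, adjusted p = 0.408). Of 7 tested regulators none passed in surgery against control, pMT against surgery or pMT/VitD against surgery, among them the most abundant, Zeb2, Nab1 and Egr1. The shares of all genes in these comparisons were the same 1.55%, 1.94% and 7.44%. In pMT/VitD against VitD 1 of the 7 passed, lower, beside 21.9% of all genes. Nfatc4, a calcineurin-responsive factor chosen after its values were seen, passed in VitD against control (0.95, adjusted p = 0.0339).

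Axon and neuron genes, whose transcripts lie mostly in cell bodies outside muscle, summed to 25.5 to 67.0 CPM. Of 12 such genes 6 could be tested, and Calca and Chat had 0 counts in every library, which allows up to 0.0648 CPM by a floor of 3 counts for counting error only. Sncg, a synuclein of peripheral neurons, had means of 5.85, 12.9, 8.51, 9.60 and 14.5 CPM in control, surgery, pMT, pMT/VitD and VitD, and passed in VitD against control (1.31, adjusted p = 0.0201, edgeR). Stmn2 did not pass in any comparison, and Tubb3, a neuronal tubulin, passed in pMT/VitD against VitD (-0.79, adjusted p = 0.0484). Central nervous system genes, listed because Mbp and Mag are also made by oligodendrocytes, summed to 0.0645 to 0.480 CPM over 7 genes, with Opalin at 0 in all libraries and no call among the 3 that could be tested. The 4 perineurial genes (among them Itgb4, Cldn1 and Slc2a1) summed to 14.9 to 28.7 CPM with no call. Melanocyte genes, which share Sox10, summed to at most 0.425 CPM over 5 genes, and Pmel, the 1 of them tested, passed in VitD against control.

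Summed fibroblast and macrophage genes were higher in the libraries in which Pmp22 was higher. The summed CPM of 6 fibroblast genes (Pdgfra, Dcn, Lum, Col1a1, Col3a1 and Dpt) was 2541 to 2567 in control, 4373 to 4399 in surgery, 2533 to 2932 in pMT, 1917 to 2729 in pMT/VitD and 3694 to 6881 in VitD. That of 6 macrophage genes (Cd68, Adgre1, Csf1r, Cd163, Mrc1 and C1qa) was 144 to 153, 277 to 281, 97.8 to 172, 90.3 to 170 and 255 to 346 in the same order. Both sums were higher in all surgery and VitD libraries than in any other, a split for which no share of all genes was computed. The other myelin genes split in the same way, with sums of 49.8 CPM or more against 44.2 or less. Sums of other Schwann cell identity genes did too (28.8 or more against 25.7 or less), and those of repair genes narrowly (183 against 181). Sums of Schwann cell regulators and of perineurial genes overlapped. The fibroblast sum was carried by the collagen genes Col1a1 and Col3a1 (423 and 1191 CPM in control, 1058 and 2371 in surgery), while Dcn was 725 CPM in control, 642 in surgery and 719 in VitD. In surgery against control 0 of 6 fibroblast and 1 of 6 macrophage genes passed, beside 1.55% of all genes. In pMT/VitD against surgery 3 of 6 fibroblast and 6 of 6 macrophage genes were lower and passed, beside 7.44% of all genes, and against VitD 5 of 6 and 6 of 6, beside 21.9%. In pMT against surgery 1 and 2 passed, also lower, beside 1.94%. VitD replicate 1, without which the Ngfr call was lost, had the highest of both sums (6881 and 346 CPM). The part of these cells in the Pmp22 and Ngfr results was not tested. Endothelial genes summed to 216 to 300.5 CPM, adipocyte genes to 173 to 439.5 and lymphocyte genes to 0.467 to 3.39, and of 6, 6 and 5 tested, 1 (endothelial, lower), 0 and 0 passed in pMT/VitD against surgery. Of the muscle fibre genes 2 of 6 were higher in pMT/VitD than in VitD.

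**Figure D4:**
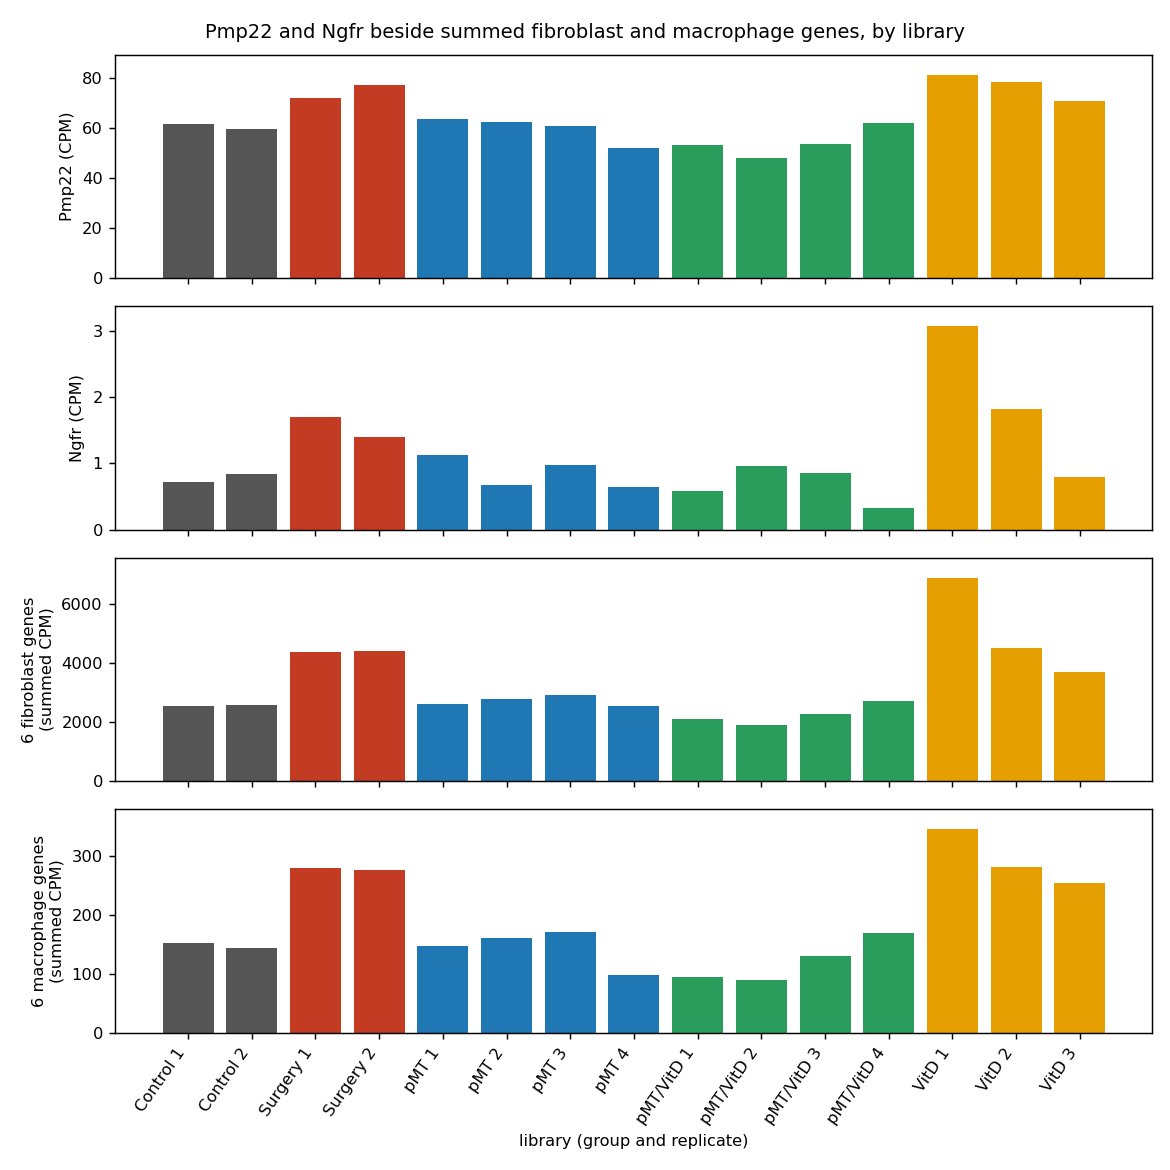
CPM of Pmp22 and Ngfr and summed CPM of 6 fibroblast and 6 macrophage genes, as 1 bar per library from 0, coloured by group. Bars of Pmp22 and of both sums are highest in the 5 surgery and VitD libraries, and VitD replicate 1 has the highest bar in all 4 panels.

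A common variation of the 8 genes was not shown. Over the 15 libraries, which share their group structure, 14 of 28 pairs of members had a positive and 14 a negative Pearson r of log2 CPM, and none had an adjusted p under 0.05 (permutation test, 100000 resamples, two-sided). The highest was Mbp with Pmp22 (r = 0.69, permutation p = 0.00277, adjusted 0.0776; Spearman's rho 0.675, permutation p = 0.00696, adjusted 0.189). It was 0.44 without the 2 libraries farthest from the median of Mbp and 0.73 once group means were removed. Pmp22 with Ngfr followed (r = 0.65, permutation p = 0.00726, adjusted 0.102; rho 0.629, permutation p = 0.0135, adjusted 0.189). That relation was 0.65 without the 2 farthest libraries but 0.00 once group means were removed, so it lay between the groups and not within them. The lowest was Mbp with S100b (r = -0.59, permutation p = 0.0189, adjusted 0.177, and rho -0.493, permutation p = 0.0647, adjusted 0.398). It was -0.18 without the 2 farthest libraries, so its size depended on them. Once group means were removed it was -0.61, and without both replicates labelled 4 it was -0.50. With group means removed, Prx had an r of 0.69 with Mbp, 0.55 with Pmp22, -0.72 with S100b and -0.62 with Ngfr. Over all libraries as they stand these values were 0.49, -0.02, -0.52 and -0.54. The values with group means removed were not tested.

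**Figure D5:**
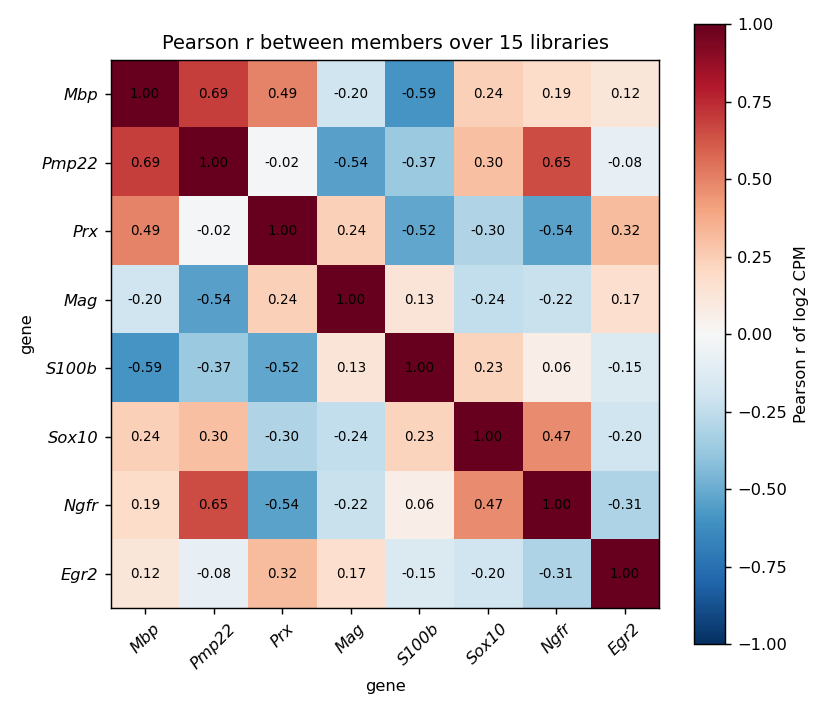
Pearson r of log2 CPM between each pair of members over 15 libraries, with colour from -1 (blue) to 1 (red) and the value in each cell. Mbp with Pmp22 has the highest r at 0.69 and Mbp with S100b the lowest at -0.59.

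Outside the list, the genes most like each member by Pearson r of log2 CPM were sought among 12796 genes. For Pmp22 these were Lasp1, Mxra8 and Vash1 (each r = 0.97), and for Ngfr Prc1 (0.93), Kif11 (0.89) and Tmem138 (0.88). S100b was nearest to Cryab and Serpine2 (0.93 each) and LOC100909892 (0.89), Mbp to Dennd2a (0.90), Dapk2 and Fgd1 (0.89 each), and Prx to Zbtb4 (0.92), Mars and Vps18 (0.89 each). Mag was nearest to Rundc1 and Daam2 (0.84 each) and Trit1 (0.80), Sox10 to Ccdc112 (0.83), Tsen34 and Prim2 (0.78 each), and Egr2 to Trim55 and Seli (0.85 each) and Ttc39b (0.84). None of these nearest genes was a myelin or Schwann cell gene of the lists above. These are the highest values among many genes over 15 libraries that share groups, and are given as a description.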

How the data were processed

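Multifidus RNA was sequenced as read pairs on an Illumina NovaSeq. Per the submitters' processing notes, reads were trimmed with Trimmomatic 0.38, aligned to rn6 with HISAT2 2.1.0 and quantified with StringTie 2.1.3b. The authors deposited unnormalized read counts per gene, and all tests below rest on them. The TPM values deposited by the authors served to compare levels between genes and to derive relative gene lengths, and the deposited FPKM values were not used. Strand handling is not given in the sources used here.

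Counts were scaled with TMM factors (0.849 to 1.20) and tested with the quasi-likelihood F-test of edgeR 4.0.16 (R 4.3.3) on all 15 libraries after filterByExpr. A gene was called at a Benjamini-Hochberg adjusted p under 0.05 over all 17201 genes. Log2 CPM used a prior count of 2. Of 13 comparisons 12 were planned and 1 added after the data were seen. Depth (52342100 to 73557900 counts) limits precision mainly for the low genes Mag, Sox10, Ngfr and Egr2. Alternatives were other scalings and filters, limma 3.58.1 (voom), DESeq2 1.42.0, a replicate block, fewer libraries and removal of a gene length trend. The tests were tried on simulated counts. Members and gene lists were chosen with earlier results of these data known, and 2 genes of a list are not reported here. Other genes were named when among the 3 most abundant tested genes of a list, when among the 5 of it with the smallest p of those called in the 5-group test, or, for likeness, among the 3 with the highest r at a mean log2 CPM of at least 0.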

Additional observations from a re-analysis of the deposited data

How the results depend on the processing

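Of 2548 values of the 8 genes under the alternatives, 2440 kept the sign of the reported fit, and the largest reported value among the other 108 was 0.49. The numbers of members called, out of 8, changed as follows. limma voom with quality weights called 3 in surgery against control (beside 4938 of all 17201 genes) and 3 in VitD against control (6447 genes). It called 2 in the 4 operated groups against control (2332 genes) and 5 in pMT against surgery (6480 genes). For pMT/VitD it called 3 against surgery (6800 genes), 5 against pMT (6617 genes) and 3 against VitD (8406 genes, 2 members as reported and S100b added). The interaction gave 3 (5417 genes), the added contrast 4 (8821 genes) and the 5-group test 7 (11466 genes). Scaling by library size alone called 1 in VitD against control (2795 genes) and 2 in pMT/VitD against surgery (3250 genes). That scaling called 3 in pMT/VitD against VitD (5758 genes, Mbp added to the members) and 2 in the 5-group test (3579 genes). It moved the median of all genes by up to -0.34 (pMT/VitD against VitD), and by -0.32 in pMT/VitD against surgery, where Pmp22 was then at -0.78. DESeq2 called 1 in VitD against control (2471 genes) and 2 in the 5-group test (3708 genes). With only the libraries compared in the fit, 4 passed in surgery against control, where 5289 of 16316 genes did. In that setting 0 passed in pMT/VitD against surgery and 1 in pMT/VitD against VitD, where the numbers of all genes called are not given. The fold change of 2 with an unadjusted p (exactTest) gave 3 in surgery against control, where it took 1169 of 16316 genes. It gave 2 in VitD against control (1335 of 16594 genes) and 1 in pMT/VitD against VitD (Ngfr, with the number of all genes taken not given). In pMT/VitD against surgery that rule took Ngfr in place of Pmp22, beside 870 of 16317 genes. Without both replicates labelled 4, 1 passed in VitD against control (2589 of 17182 genes) and 1 in pMT/VitD against pMT (3136 genes). In the added contrast 3 passed there (Mag added), beside 4895 genes.

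Leaving out 1 library at a time gave 0 to 1 in VitD against control, 0 to 1 in pMT/VitD against surgery, 1 to 2 in pMT/VitD against VitD, 1 to 3 in the added contrast and 0 to 2 in the 5-group test. Pmp22 left the 5-group calls without surgery replicate 1, surgery replicate 2 or VitD replicate 2, and Ngfr joined them without VitD replicate 3, where it also passed in VitD against control (1.65, adjusted p = 0.0223, edgeR). Without VitD replicate 3 these 2 tests called 2305 and 2396 of 17152 genes, beside 2035 and 1492 of 17201 with all libraries. Numbers of all genes called in the other fits of this kind are not given. A change in the count of members there cannot be told from a change in the share of all genes. Ngfr left the added contrast without surgery replicate 1 (adjusted p = 0.0615). Causes were not tested.

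Same-numbered libraries of different groups did not deviate together (r from -0.499 to 0.169 over 24 pairs, median 0.0103, 2 over 0.1), so the numbers are not taken as a pairing. With a replicate block, 0 passed in pMT/VitD against surgery, 1 in pMT/VitD against VitD, 1 in the added contrast and 0 in the 5-group test. The numbers of all genes called with the block are not given. Ngfr was the gene lost against VitD (adjusted p = 0.0616, edgeR) and in the added contrast (0.0955), and Pmp22 against surgery (0.126) and in the 5-group test (0.101). Depth limits Mag (8 to 37 counts) and, less so, Sox10, Ngfr and Egr2.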
